A study of Mus musculus with 24 samples.

Results

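Aquaporins are the channels through which water, and in some members glycerol, crosses cell membranes. The genes described here are Aqp1, Aqp2, Aqp3, Aqp4, Aqp6, Aqp7 and Aqp11, 7 genes chosen by name and found by their Ensembl identifiers among the 30153 genes of the expression table. They were followed in 24 libraries of polyadenylated mouse RNA, in 6 groups of 4 animals. The groups were aged and adult mice labelled Haplotype-I with no diet stated, aged Haplotype-I, adult Haplotype-I and adult Haplotype-II mice on western diet (called diet-fed below), and C57 adults with no diet stated. Every library is labelled as kidney of the strain C57/BL6. Hap-I and Hap-II below stand for the haplotype labels, and per the series title the human angiotensin receptor type 1 is overexpressed in the hypertensive mice. The sources used here do not give the promoter of that transgene, the number of founder lines, the sex of the animals or their ages in numbers. All values are deposited TPM, a transcript level per transcript length scaled to a common library total, so levels of different genes can be set side by side.

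In the kidney each aquaporin has its own place along the nephron. AQP1 carries water reabsorbed in the proximal tubule and thin descending limb, AQP2 is the vasopressin-regulated channel of the apical membrane of collecting duct principal cells, and AQP3 and AQP4 let that water leave across the basolateral membrane. AQP6 lies in intracellular vesicles of acid-secreting intercalated cells, AQP7 carries water and glycerol in the straight part of the proximal tubule, and AQP11 lies inside proximal tubule cells. In the brain, AQP4 is the water channel of astrocyte endfeet around vessels, and AQP1 is found in the choroid plexus epithelium, which secretes cerebrospinal fluid.

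The transcripts did not match the labelled tissue in all groups. In the 8 Hap-I libraries with no diet stated, 6 neuron markers summed to 3521 to 4495 TPM, against at most 5.13 TPM in the 16 other libraries. The 8 markers of collecting duct principal cells summed to at most 0.707 TPM in those 8 libraries, with the kidney cadherin Cdh16 listed at 0 in all of them. These 8 libraries are called brain-like below, and the 16 others, in which markers of every nephron segment were present, kidney-like. Among the kidney-like groups, mitochondrially encoded transcripts took a mean of 27.7% of TPM in diet-fed aged Hap-I mice, 30.4% in diet-fed Hap-I adults, 24.4% in diet-fed Hap-II adults and 15.2% in C57 adults. Y-linked transcripts were present in 2, 3, 2 and 0 of the 4 libraries of these groups, in the same order, and in all 8 brain-like libraries. TPM keep no read depth, so the depth behind each value is unknown.

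The members lie at 5 places in the mouse genome (GRCm38, GENCODE M21). Aqp2 (ENSMUSG00000023013, chr15:99579055-99584547, plus strand) and Aqp6 (ENSMUSG00000043144, chr15:99601400-99605477, plus strand) stand beside each other with Aqp5 between them, 6234 bp downstream of Aqp2 and 6570 bp upstream of Aqp6. Aqp7 (ENSMUSG00000028427, chr4:41033074-41048139) and Aqp3 (ENSMUSG00000028435, chr4:41092722-41098183) are neighbours on the minus strand of chromosome 4, 44582 bp apart. Aqp1 (ENSMUSG00000004655, chr6:55336432-55348555, plus strand), Aqp11 (ENSMUSG00000042797, chr7:97724006-97738289, minus strand) and Aqp4 (ENSMUSG00000024411) stand apart from the rest. All 7 are annotated as protein-coding.

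Promoter windows of RefSeq (GRCm38.p6, 250 bases before to 50 after the start) were read for 6 of the 7 genes. Those of Aqp2 and Aqp3 are shown because these genes share a cell type and the lower levels described below, and that of Aqp11 because it is the member whose level differed least between groups. They are Aqp2 at chr15:99578806-99579105 (plus strand), Aqp3 at chr4:41098134-41098433 (minus strand) and Aqp11 at chr7:97738198-97738497 (minus strand), each 5′ to 3′. Capitals mark letters that match a searched motif on either strand.
Aqp2: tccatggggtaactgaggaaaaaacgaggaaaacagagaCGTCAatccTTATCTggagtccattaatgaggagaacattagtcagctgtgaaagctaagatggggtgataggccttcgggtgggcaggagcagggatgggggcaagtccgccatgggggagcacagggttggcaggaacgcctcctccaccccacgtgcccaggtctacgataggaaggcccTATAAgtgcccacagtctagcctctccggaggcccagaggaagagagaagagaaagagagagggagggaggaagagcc
Aqp3: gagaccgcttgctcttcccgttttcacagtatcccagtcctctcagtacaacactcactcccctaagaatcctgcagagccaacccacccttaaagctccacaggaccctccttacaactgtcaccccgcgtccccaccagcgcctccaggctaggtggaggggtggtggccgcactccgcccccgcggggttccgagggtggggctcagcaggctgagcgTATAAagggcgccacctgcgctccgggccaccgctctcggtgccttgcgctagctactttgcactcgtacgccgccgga
Aqp11: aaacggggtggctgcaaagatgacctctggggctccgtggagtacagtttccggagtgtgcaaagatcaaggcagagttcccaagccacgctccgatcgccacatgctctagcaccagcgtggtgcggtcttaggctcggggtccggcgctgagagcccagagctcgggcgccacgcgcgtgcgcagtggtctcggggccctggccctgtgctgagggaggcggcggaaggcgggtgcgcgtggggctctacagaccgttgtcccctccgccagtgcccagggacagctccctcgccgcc
In the Aqp2 window the capitals are, in order, CGTCA, the reverse complement of the cAMP response core TGACG, at position -211 from the start, TTATCT, the reverse complement of the GATA factor motif AGATAA, at -202, and TATAA at -28. In the Aqp3 window they are TATAA at -29. The Aqp11 window held none of the motifs searched, which were those already named, the NFAT5 core TGGAAA and the direct-repeat motif of PPAR, each on both strands. Among all 32851 promoter windows, the GATA motif occurred in 11.2%, the cAMP core in 20.8%, TATAA in 24.9%, the NFAT5 core in 21.4% and the PPAR motif in 0.0396%. Each motif found here was thus common among promoters. The Aqp11 window had 27 CpG pairs and a GC content of 68.0%, the Aqp3 window 21 pairs and 64.0%, and the Aqp2 window 8 pairs and 56.0%, against medians of 7 pairs and 52.7% over all windows. The windows of Aqp1 and Aqp6 held none of the motifs either, and the first of 2 windows of Aqp7 held the GATA motif at -132 and the NFAT5 core at -234.

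Aqp1 was the most abundant aquaporin of the kidney-like libraries. Its level in the 4 libraries was 117, 400.3, 326 and 147 TPM in diet-fed aged Hap-I mice, 239, 216, 186 and 82.1 TPM in diet-fed Hap-I adults, 406, 227, 119.8 and 193 TPM in diet-fed Hap-II adults, and 611, 620.3, 555 and 726 TPM in C57 adults. Every C57 library stood above every library on western diet, while the 3 groups on the diet overlapped one another. The means were 248 ± 137, 181 ± 69.1, 236 ± 122 and 628 ± 71.0 TPM in the same order of groups (SD, n = 4). The brain-like libraries were far below, at 0.364 to 2.37 TPM in aged and 0.165 to 13.8 TPM in adult Hap-I mice with no diet stated.

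Aqp2, the vasopressin-regulated channel, came second. It stood at 51.0, 202, 77.7 and 138 TPM in diet-fed aged Hap-I mice, 81.4, 104, 73.9 and 15.6 TPM in diet-fed Hap-I adults, 107, 189.7, 26.5 and 63.8 TPM in diet-fed Hap-II adults, and 436, 136, 117 and 339 TPM in C57 adults. The first and the fourth C57 library stood far above the second and the third, and of the groups on the diet only the Hap-I adults lay wholly below all 4. The means were 117 ± 67.2, 68.6 ± 37.6, 96.6 ± 70.1 and 257 ± 156 TPM (SD, n = 4). In the brain-like libraries Aqp2 was listed at 0 in 4 of 8 and reached at most 0.125 TPM.

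Aqp3, the basolateral partner that also passes glycerol, followed Aqp2 at a lower level. Its values were 26.2, 80.6, 44.4 and 23.3 TPM in diet-fed aged Hap-I mice, 41.2, 41.9, 43.7 and 13.1 TPM in diet-fed Hap-I adults, 59.4, 51.8, 16.9 and 37.6 TPM in diet-fed Hap-II adults, and 107, 84.8, 69.8 and 130.4 TPM in C57 adults. Diet-fed Hap-I and Hap-II adults lay wholly below the C57 libraries, and the aged group overlapped them through its second library. The fourth library of diet-fed Hap-I adults, which had the fewest genes above 0 of all 24 (15975), held the lowest value of Aqp1, Aqp2, Aqp3, Aqp6 and Aqp7 among the 16 kidney-like libraries, and Aqp4 was listed at 0 in it.

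Aqp4, on chromosome 18, was the one member whose mean in both brain-like groups was above that of every kidney-like group. It stood at 31, 25.6, 27.2 and 27.2 TPM in aged and 5.15, 24.0, 20.4 and 23.5 TPM in adult Hap-I mice with no diet stated. In the kidney-like groups it was 3.68, 1.03, 1.51 and 1.48 TPM in diet-fed aged Hap-I mice, 1.38, 3.15, 1.73 and 0 TPM in diet-fed Hap-I adults, 7.81, 12.5, 2.33 and 3.38 TPM in diet-fed Hap-II adults, and 8.93, 8.01, 16.6 and 18.2 TPM in C57 adults. All 8 Hap-I libraries on the diet were below 4 TPM, and all 4 C57 libraries were above 8 TPM.

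Aqp6 and Aqp7 were weaker, and again highest in C57 adults. Aqp6 of intercalated cell vesicles stood at 11.5, 22.9, 18.6 and 13.8 TPM in diet-fed aged Hap-I mice, 14.2, 11.1, 6.10 and 2.50 TPM in diet-fed Hap-I adults, 23.5, 14.2, 6.59 and 14.9 TPM in diet-fed Hap-II adults, and 38.0, 31.2, 36.0 and 56.6 TPM in C57 adults, with no overlap between C57 and any group on the diet. The aquaglyceroporin Aqp7 stood at 4.73 to 8.83, 3.00 to 5.96, 3.96 to 14.0 and 13.04 to 23.0 TPM in the same order of groups, with 1 Hap-II library inside the C57 range. Both stayed at or below 0.271 TPM in every brain-like library.

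Aqp11 alone was found at similar TPM in all 6 groups. It stood at 7.48 to 14.0 TPM in aged and 6.19 to 10.9 TPM in adult Hap-I mice with no diet stated. It was 2.14, 12.2, 18.9 and 4.52 TPM in diet-fed aged Hap-I mice, 11.01, 11.4, 12.2 and 10.4 TPM in diet-fed Hap-I adults and 19.2, 12.7, 9.30 and 12.01 TPM in diet-fed Hap-II adults, and it was 16.3, 16.8, 12.2 and 14.7 TPM in C57 adults. The means were 10.1, 8.73, 9.43, 11.2, 13.3 and 15.0 TPM in this order of groups, and the libraries of each group overlapped those of the next group when the groups were ranked by mean. For Aqp1, Aqp2, Aqp3 and Aqp6 the ranking was C57 adults, diet-fed aged Hap-I mice, diet-fed Hap-II adults and diet-fed Hap-I adults, with overlap between neighbours in that ranking except between C57 and the aged group for Aqp1 and Aqp6.

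**Figure D1:**
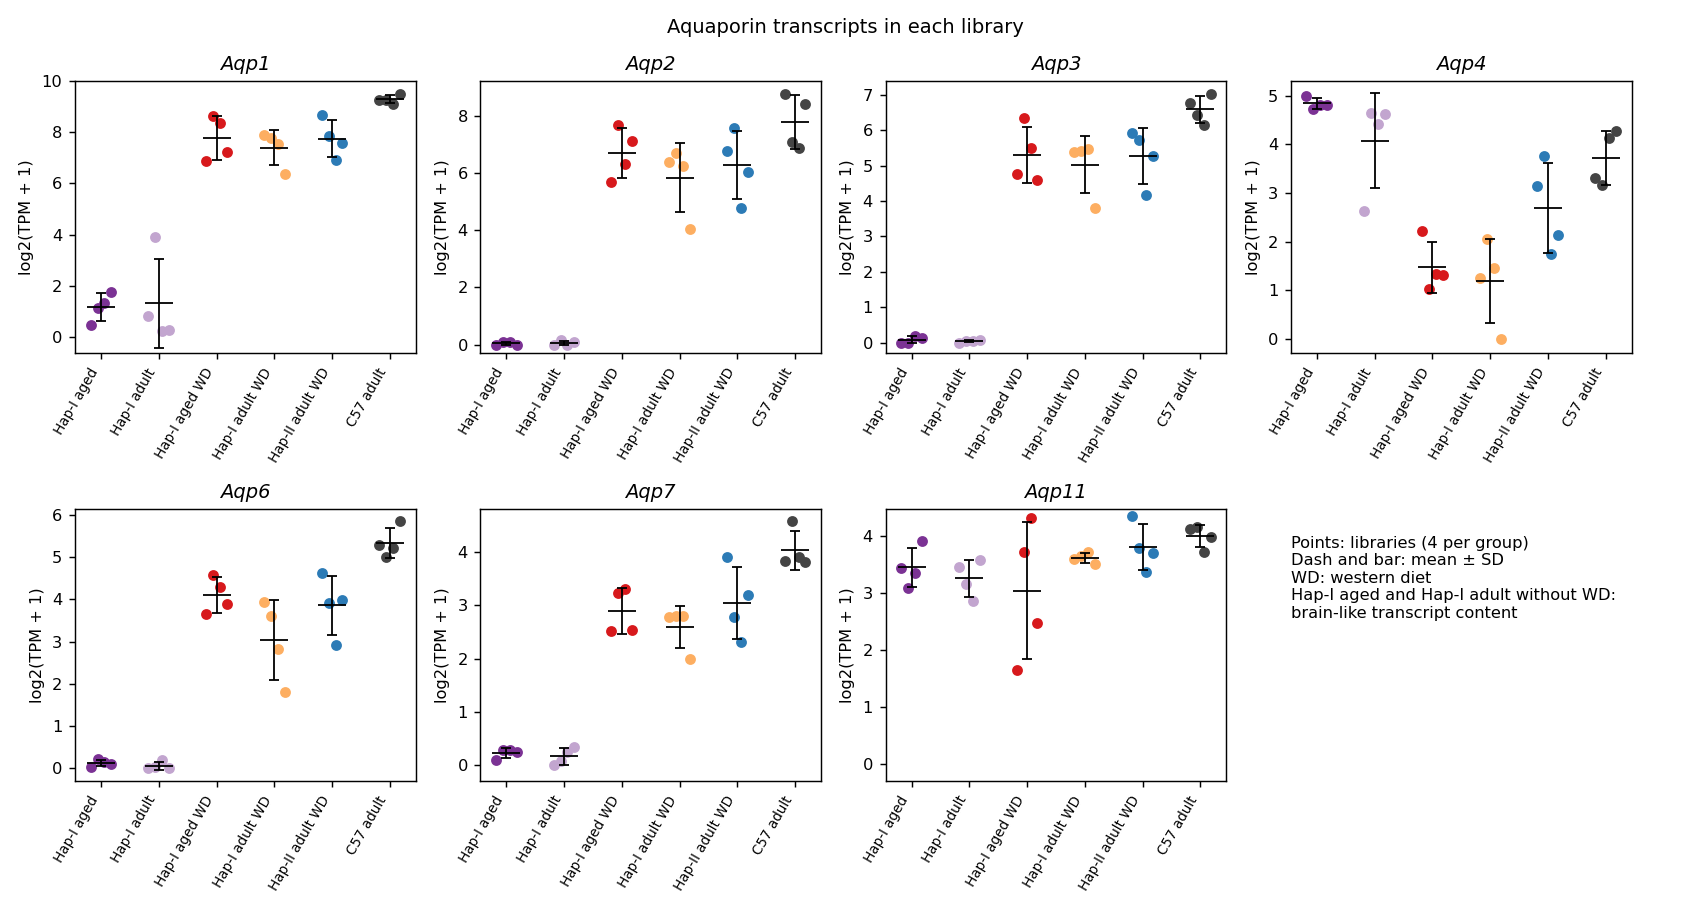
Level of each aquaporin gene, log2(TPM + 1), in every library (points, 4 per group) with the group mean and SD (dash and bar). Aqp1, Aqp2, Aqp3, Aqp6 and Aqp7 are near 0 in the brain-like groups labelled Hap-I with no diet stated apart from Aqp1 in 1 adult library at 13.8 TPM, Aqp4 is highest there, and Aqp11 has a similar level in all groups.

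The 7 genes together gave 443 ± 221 TPM in diet-fed aged Hap-I mice, 311 ± 126 TPM in diet-fed Hap-I adults, 417 ± 199 TPM in diet-fed Hap-II adults and 1067 ± 233 TPM in C57 adults (SD, n = 4). The 3 most abundant members held similar shares of that sum in these groups. Aqp1 took 54.8%, 59.2%, 57.6% and 60.2% of it in the same order of groups, Aqp2 took 27.1%, 20.4%, 21.8% and 22.6%, and Aqp3 took 9.78%, 11.2%, 9.96% and 9.12%. Shares of the weaker members differed more. Aqp4 took 0.648 ± 0.712%, 0.420 ± 0.336%, 1.48 ± 0.639% and 1.26 ± 0.590%, and Aqp11 took 1.96 ± 1.26%, 4.402 ± 2.57%, 3.53 ± 1.09% and 1.44 ± 0.293%. In brain-like libraries the sum was 39.6 ± 3.93 TPM in aged and 31 ± 12.7 TPM in adult Hap-I mice, of which Aqp4 took 70.4% and 56.8% and Aqp11 25.3% and 33.5%.

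**Figure D2:**
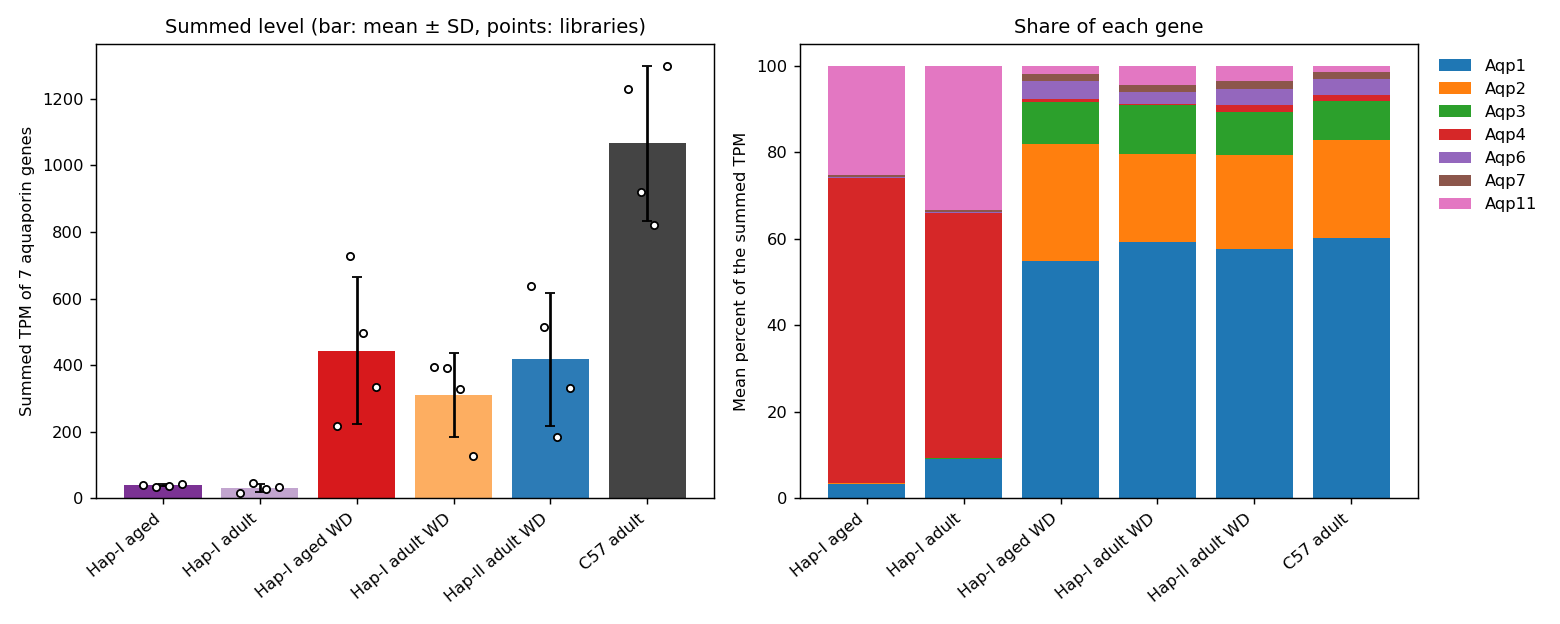
Left, summed TPM of the 7 aquaporin genes per group (bar, mean with SD, points are libraries). Right, mean percent of that sum held by each gene. The sum is 1067 TPM in C57 adults and 311 to 443 TPM in the groups on western diet, with similar shares of Aqp1, Aqp2 and Aqp3 in the 4 kidney-like groups, while Aqp4 and Aqp11 fill most of the sum in the brain-like groups.

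The first comparison asked how age changes the Hap-I kidney on western diet. No aquaporin passed the test, which was limma on log2(TPM + 1) over the 16 kidney-like libraries, two-sided, with Benjamini-Hochberg adjustment over 12923 genes at a threshold of 0.05. The same test called 4 genes of 12923, 0.031%, and 2080 had an unadjusted p under 0.05. The largest difference, aged minus adult, was that of Aqp6, 1.06 ± 0.41 on the log2 scale (SE), with an adjusted p of 0.248 in limma and overlapping libraries. Aqp2 followed with 0.86 ± 0.65, and Aqp11 was the only member with a negative value, -0.58 ± 0.41, although Aqp1, Aqp3 and Aqp7 also fell below 0 under median-of-ratios scaling. The median over all genes was 0.32, so the other members, Aqp1 at 0.38, Aqp3 at 0.27, Aqp4 at 0.28 and Aqp7 at 0.30, lay close to it.

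The second comparison set the 2 haplotypes against each other in adults on western diet. Again 0 of 7 members passed the limma test, beside 10 of 12923 genes, 0.0774%, and 421 genes with an unadjusted p under 0.05. All 7 differences, Hap-I minus Hap-II, were below 0, as was the median over all genes at -0.22, but those of Aqp3 and Aqp11 turned above 0 under median-of-ratios scaling. Aqp4 had the largest, -1.50 ± 0.47 (SE), with an unadjusted p of 0.00521 and an adjusted p of 0.817 in limma. Its 4 libraries of Hap-I adults, at 0 to 3.15 TPM, overlapped the 4 of Hap-II adults, at 2.33 to 12.5 TPM, through a single library of each group. Aqp6 came next at -0.82 ± 0.41, and the other 5 lay between -0.45 and -0.18. This comparison and the first share the libraries of diet-fed Hap-I adults.

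Diet-fed Hap-I adults had lower levels of most of the family than C57 adults. In limma 6 of 7 members were lower at adjusted p under 0.05, against a background of 59.7% of all genes called lower, so a lower call was the common outcome in this comparison. Aqp4 had the largest difference on the log2 scale, -2.53 ± 0.47 (SE), with an adjusted p of 0.00125. Aqp6 differed by -2.30 ± 0.41 with an adjusted p of 0.00115, with a mean of 8.48 ± 5.21 TPM in diet-fed Hap-I adults against 40.5 ± 11.2 TPM in C57 adults (SD, n = 4 each). Aqp2 differed by -1.95 ± 0.65 with an adjusted p of 0.0170, and this call alone depended on single libraries. Without the fourth library of diet-fed Hap-I adults its adjusted p in limma was 0.074, and without the first or the fourth C57 library it was 0.0511 or 0.0504.

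The remaining members followed in the order Aqp1, Aqp3, Aqp7 and Aqp11. Aqp1 differed by -1.89 ± 0.42 with an adjusted p of 0.00238 in limma, a ratio of means of 0.288. Aqp3 differed by -1.56 ± 0.45 with an adjusted p of 0.00846, and Aqp7 by -1.44 ± 0.33 with 0.00272. Aqp11 did not pass, at -0.38 ± 0.41 with an adjusted p of 0.427. Its highest Hap-I library and its lowest C57 library, both 12.2 TPM, nearly met, and all 7 members had non-overlapping libraries, lower in Hap-I, as did 55.3% of all genes. The median of the 7 differences was -1.89 and the median over all 12923 genes was -0.80.

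Under median-of-ratios scaling, which sets the median difference over all genes to about 0, 3 of 7 members were still called lower in limma. These were Aqp1 at -0.88 with an adjusted p of 0.0182, Aqp4 at -1.86 and Aqp6 at -1.37, while Aqp11 turned to 0.57 without passing. Over all genes that scaling changed the calls to 2317 higher and 1779 lower, against 294 higher and 7715 lower with TPM as deposited. The 4 C57 libraries had no Y-linked transcripts. A fit restricted to kidney-like libraries without them kept 1 library of diet-fed Hap-I adults and assumed that it varies like the other groups. The differences there were -2.47 to -1.19 for the 6 genes called lower with TPM as deposited, and -0.40 for Aqp11. With 1 library in a group, the calls of that fit are not given. Diet, haplotype, sex of the animals and mitochondrial share cannot be told apart in this comparison.

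Diet-fed Hap-II adults were set against the same C57 libraries. In limma 4 of 7 members were lower, against a background of 36.9%. They were Aqp1 at -1.54 ± 0.42 (SE) with an adjusted p of 0.0132, Aqp6 at -1.48 ± 0.41 with 0.0149, Aqp7 at -0.99 ± 0.33 with 0.0285, and Aqp3 at -1.32 ± 0.45 with 0.0314. Aqp2 at -1.51 ± 0.65 and Aqp4 at -1.03 ± 0.47 had adjusted p of 0.0707 and 0.0834, and Aqp11 was at -0.19 ± 0.41. The median over all genes was -0.59, and 3 members, Aqp1, Aqp3 and Aqp6, had non-overlapping libraries, lower in Hap-II, as did 26.7% of all genes.

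These calls rested on few libraries, and the count of lower calls over all genes also moved. With all libraries that count was 4774 of 12923 genes. Without Hap-II library 1, 2, 3 or 4 it was 6511 of 12838, 3907 of 12872, 1678 of 12885 or 2675 of 12891. Without C57 library 1, 2, 3 or 4 it was 5265 of 12799, 2502 of 12749, 2609 of 12751 or 2161 of 12746. Whether the family depended on single libraries more than other genes was not tested. Without the third Hap-II library, the one with the lowest Aqp1, Aqp2, Aqp3, Aqp6 and Aqp7 of its group, 0 of 7 members passed, with an adjusted p of 0.0575 for Aqp1. Without the fourth Hap-II library 2 passed, without the second C57 library 2, without the fourth C57 library 1, and without the first or the third C57 library 3. Leaving out the second Hap-II library, which had the highest Aqp2 and Aqp4 of its group, gave 5, with Aqp2 and Aqp4 gained and Aqp7 lost. With median-of-ratios scaling only Aqp1 passed, at -0.80 with an adjusted p of 0.0359, and all genes split into 1661 higher and 1216 lower calls in place of 353 and 4774. Among kidney-like libraries without Y-linked transcripts, 2 of Hap-II and all 4 of C57 adults, none of the 7 passed in limma, beside 40 of 12656 genes. The adjusted p in limma was 0.177 or more in the 4 genes called otherwise.

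**Figure D3:**
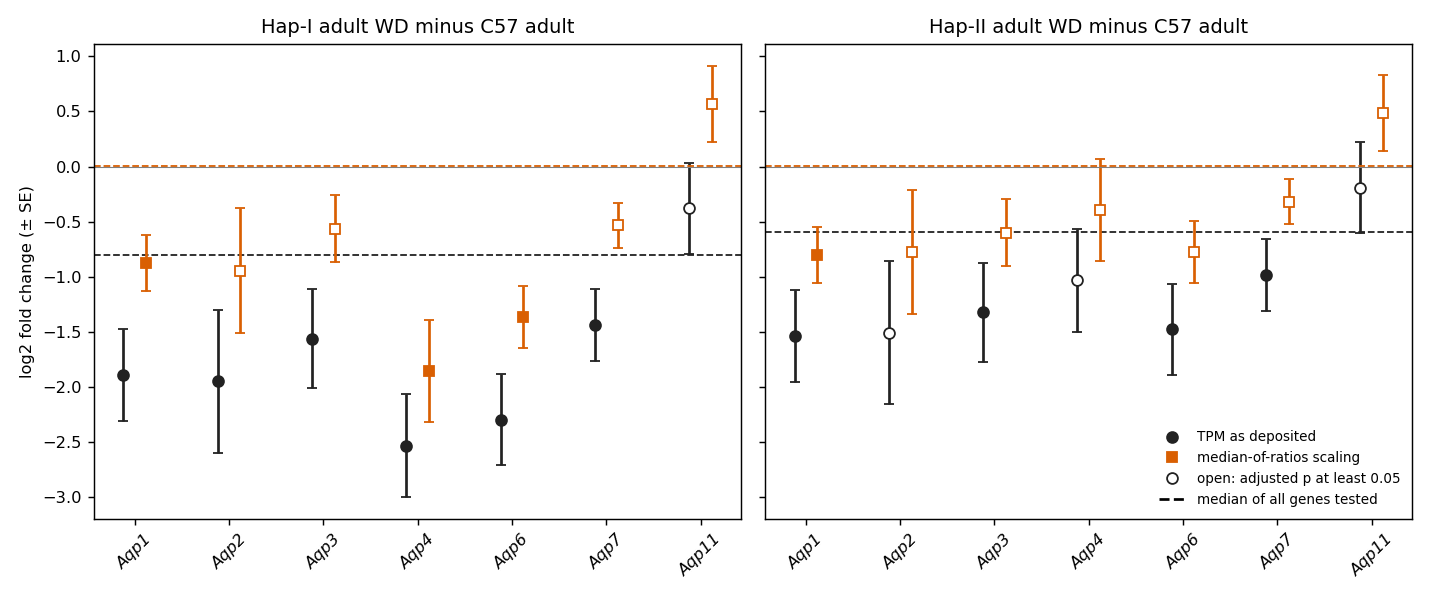
Log2 difference of each aquaporin gene against C57 adults (± SE, limma, n = 4 libraries per group) with TPM as deposited (circles) and after median-of-ratios scaling (squares). Filled symbols passed at adjusted p under 0.05, and the dashed lines are the medians over all genes tested, -0.80 and -0.59 with TPM as deposited. Scaling moves every gene upward, and Aqp11 moves above 0.

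Markers of the nephron segments had lower mean sums in both adult groups on the diet than in C57 adults. In bulk RNA, fewer cells of a type and less RNA per cell cannot be told apart. The 8 principal cell markers summed to 25.3 to 107 TPM in diet-fed Hap-I adults and 39.3 to 189 TPM in diet-fed Hap-II adults, against 317 to 409 TPM in C57 adults. All 8 were called lower in limma in both comparisons, beside 59.7% and 36.9% of all genes. Under median-of-ratios scaling 7 and 5 of 8 were lower, beside 1779 and 1216 of 12715 genes. The 8 proximal tubule markers summed to 1077 to 1847, 1391 to 4046 and 3699 to 5097 TPM in the same order of groups, and the 7 intercalated cell markers to 30.7 to 112, 45.3 to 170 and 214 to 361 TPM, with Slc4a9 listed at 0 in all 16 libraries. Of the proximal tubule markers 6 and 3 of 8 were called lower, the latter near the 36.9% of all genes. Under median-of-ratios scaling 2 of 8 were lower in each comparison. Of the intercalated cell markers 6 and 4 of 6 tested were lower, or 5 and 2 of 6 under that scaling. Of 5 thick ascending limb markers 4 and 1 were lower, and of 3 distal convoluted tubule markers 2 and 2. Under median-of-ratios scaling these counts were 2 and 1 of 5, and 2 and 0 of 3. Of other cells that carry aquaporins, red blood cell markers, whose membranes hold AQP1, summed to 3906 to 9619 TPM in diet-fed Hap-I adults and 832 to 2311 TPM in C57 adults, and adipocyte markers, whose cells hold AQP7, to at most 10.1 TPM against 7.43 to 294 TPM. Endothelial markers, from cells that hold AQP1, summed to 98.5 to 193 TPM against 292 to 360.1 TPM. The part of these cells in the aquaporin values was not tested.

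Each member was also expressed relative to its segment, as its log2(TPM + 1) minus the mean of the segment's markers, a measure chosen after seeing the data. With 4 libraries a group, an exact permutation test, two-sided, allows no p below 0.0286. Of 28 such tests 4 reached it, and none passed after Benjamini-Hochberg adjustment over the 28, where the lowest adjusted p was 0.2. Relative to proximal tubule markers Aqp1 differed by -0.18 between diet-fed Hap-I adults and C57 adults (exact p 0.543), beside -1.89 without that reference. Relative to principal cell markers Aqp2 differed by 0.11 (exact p 0.8286), beside -1.95. Aqp6 kept -0.49 relative to intercalated cell markers (exact p 0.143), beside -2.30.

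The 4 tests at the smallest p concerned Aqp3, Aqp4 and Aqp11. Aqp3 relative to principal cell markers was 0.50 higher in diet-fed Hap-I adults than in C57 adults. Aqp4 relative to the same markers was 1.08 lower in diet-fed Hap-I than in diet-fed Hap-II adults. Aqp11 relative to proximal tubule markers was 1.17 lower in aged than in adult Hap-I mice on the diet, and 1.33 higher in diet-fed Hap-I adults than in C57 adults. In each of these 4 the libraries of the groups did not overlap.

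Over the 16 kidney-like libraries, Aqp3 tracked the principal cell list more closely (Pearson r 0.961, Spearman rho 0.932) than Aqp2 (0.795 and 0.756) and Aqp4 (0.805 and 0.706) did. Aqp6 tracked the intercalated cell list at 0.941 and 0.938, and Aqp1 the proximal tubule list at 0.919 and 0.894. With the proximal tubule list Aqp7 stood at 0.901 and 0.912 and Aqp11 at 0.687 and 0.788. These are descriptions over libraries that share groups, scaling and mitochondrial share. Without the 2 libraries farthest from the median of each list, r was 0.939 for Aqp3, 0.663 for Aqp2, 0.685 for Aqp4, 0.917 for Aqp6, 0.895 for Aqp1, 0.899 for Aqp7 and 0.665 for Aqp11. Between members, r was highest for Aqp1 and Aqp3 (0.956) and lowest for Aqp4 and Aqp11 (0.276).

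**Figure D4:**
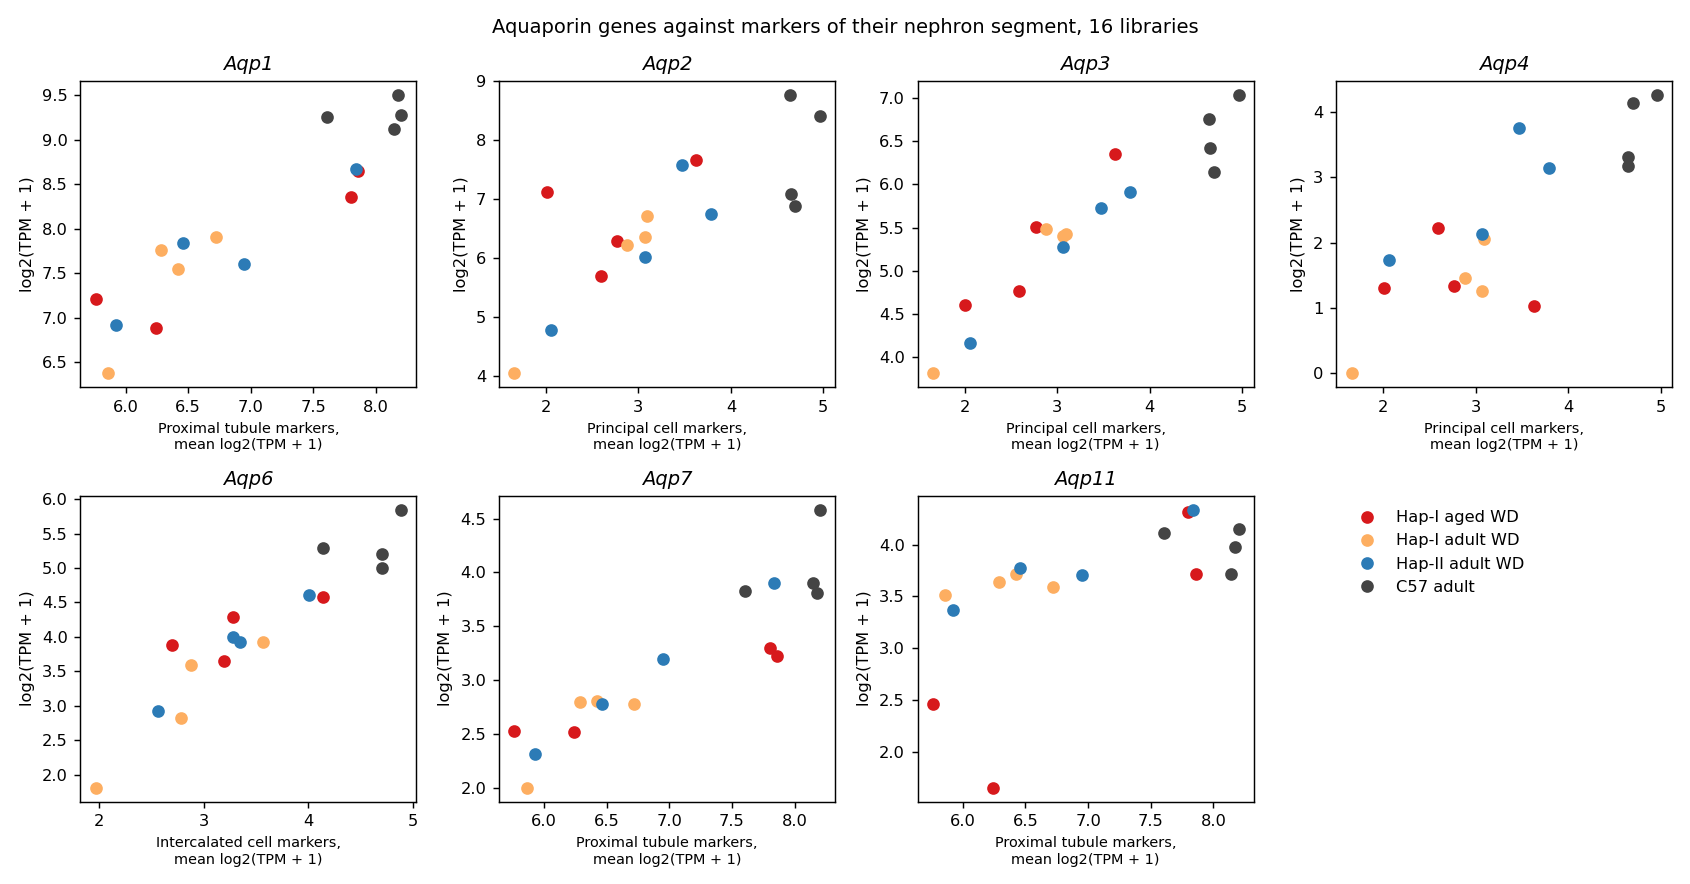
Each aquaporin gene, log2(TPM + 1), against the mean log2(TPM + 1) of the markers of its nephron segment in the 16 kidney-like libraries, coloured by group. C57 libraries lie at the upper right for most genes, and 2 libraries of diet-fed aged Hap-I mice have low Aqp11 (2.14 and 4.52 TPM).

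The signalling chain that controls AQP2 begins with vasopressin binding to the receptor AVPR2, which raises cAMP and activates protein kinase A. Of 16 tested genes of this chain, 15 were called lower in diet-fed Hap-I adults than in C57 adults in limma, and 7 in Hap-II adults, beside 59.7% and 36.9% of all genes, with medians of -1.11 and -0.68 beside -0.80 and -0.59 over all genes. The largest differences of Hap-I were those of Prkar2b, a regulatory subunit of protein kinase A (-2.55), the adenylyl cyclase Adcy6 (-1.50) and the catalytic subunit Prkaca (-1.48). In Hap-II they were Prkar2b (-2.53), Avpr2 (-1.26) and Adcy6 (-1.13). Avpr2 averaged 14.1 ± 7.30 TPM in diet-fed Hap-I adults, 15.7 ± 9.49 TPM in diet-fed Hap-II adults and 35.1 ± 8.91 TPM in C57 adults (SD, n = 4). Under median-of-ratios scaling 2 of the 16 genes were called lower in each of the 2 comparisons, beside 1779 and 1216 of 12715 genes. The gene closest to Aqp2 by deviations from group means over the 16 libraries was Zmat5 (r 0.930), and Avpr2 was second at 0.922 of 8011 genes. Without that subtraction Avpr2 was not among the 3 nearest, which were Zmat5, Bcam and Arpc1a. Nor was it under median-of-ratios scaling, which gave Bcam, Rab25 and Fam174b.

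Vesicles with AQP2 are carried along actin and fused with the membrane by SNARE proteins. Of 17 genes of this traffic 10 were lower in diet-fed Hap-I adults and 7 in diet-fed Hap-II adults than in C57 adults, with medians of -0.75 and -0.66. These shares are near the 59.7% and 36.9% of all genes called lower, so they are no result about this list. That direction did not hold under median-of-ratios scaling, which gave 6 higher and 5 lower in Hap-I and 4 higher and 3 lower in Hap-II. Over all 12715 genes that scaling gave 2317 higher and 1779 lower in Hap-I, and 1661 higher and 1216 lower in Hap-II. With TPM as deposited the lower genes in Hap-I were led by the kidney cadherin Cdh16 (-2.98), the motor Myo5b (-2.04) and the ubiquitin ligase Nedd4l (-1.91), and in Hap-II by Cdh16 (-2.71), Anxa2 (-1.53) and Myo5b (-1.41). Cdh16 also stands on the list of principal cell markers, so it is counted there too. All 12 transcription factors of the collecting duct were lower in Hap-I, with a median of -1.65, and 8 of 12 in Hap-II, with a median of -1.24, beside 59.7% and 36.9% of all genes and medians of -0.80 and -0.59. The epithelial factors Ehf (-2.65), Elf3 (-2.23) and Elf5 (-2.09) led in Hap-I, and Elf3 (-2.21), Elf5 (-2.08) and Ehf (-1.94) in Hap-II. Under median-of-ratios scaling 6 of the 12 factors were lower in Hap-I and 4 in Hap-II, beside 1779 and 1216 of 12715 genes.

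In the medulla, water flows through AQP2 along a gradient of salt and urea. Of 12 genes tied to that gradient, 10 were lower in diet-fed Hap-I adults and 9 in diet-fed Hap-II adults than in C57 adults, with medians of -1.83 and -1.70, or 8 and 6 of 12 under median-of-ratios scaling. The background was again 59.7% and 36.9% of all genes, with medians of -0.80 and -0.59. Under median-of-ratios scaling it was 1779 and 1216 of 12715 genes. The thick ascending limb protein Umod (-3.43) and the salt cotransporter Slc12a1 (-2.79) had the largest differences in Hap-I. Those lower in Hap-II included aldose reductase Akr1b3 (-2.44) and Slc12a1 (-2.09). Of 8 genes that handle glycerol beside AQP3, AQP7 and AQP9, 6 were lower in Hap-I, namely the lipases Lipe (-2.71), Mgll (-2.27) and Pnpla2 (-2.25), the dehydrogenases Gpd2 (-1.43) and Gpd1 (-1.33), and Pparg (-1.35). In Hap-II 4 were lower, Lipe (-2.004), Pnpla2 (-1.82), Mgll (-1.37) and Pparg (-1.21), and both counts are close to the same background. Under median-of-ratios scaling 4 were lower and 1 higher in Hap-I, and 2 lower and 1 higher in Hap-II. Of all 12715 genes, 1779 were lower and 2317 higher in Hap-I, and 1216 lower and 1661 higher in Hap-II. Adipocyte markers were lower beside these genes in both comparisons, 3 of 3 tested under either scaling. No gene of these lists passed the test for age or for haplotype on the diet.

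The brain-like libraries had another set of aquaporins than the 16 kidney-like ones. In a fit of all 24 libraries over 15200 genes, 1 member was higher and 5 were lower, against backgrounds of 63.5% higher and 23.9% lower. The kidney-like libraries alone carried Aqp2, Aqp3, Aqp6 and Aqp7 past the filter on low values, so for these 4 a lower level follows from their selection. Aqp4 was higher by 2.19 ± 0.29 on the log2 scale (SE) with an adjusted p of 2.9e-07 in limma, the median over all genes being 0.88. On the log2(TPM + 1) scale the difference was largest for Aqp1 (-6.82 ± 0.37) and Aqp2 (-6.60 ± 0.35), then Aqp3 (-5.49), Aqp6 (-3.99) and Aqp7 (-2.94). With values near 0 in the brain-like libraries, that is not the order of the TPM ratios. Mean TPM was 323 in the kidney-like and 2.55 in the brain-like libraries for Aqp1, 135 and 0.0401 for Aqp2, and 54.5 and 0.0435 for Aqp3. Of the 7 genes 5 had non-overlapping libraries, lower in the brain-like groups, as did 11.7% of all genes, and in Aqp4 the brain-like libraries overlapped those of Hap-II and C57 adults. Aqp11 differed by -0.26 ± 0.23 with an adjusted p of 0.286, but under median-of-ratios scaling by -1.13 with an adjusted p of 1.5e-05. That scaling changed the calls over all genes to 6671 higher and 6147 lower, in place of 9654 and 3639. Hap-I mice stand on both sides of this comparison, while Hap-II and C57 adults stand only on the kidney-like side. Within Hap-I, tissue content and diet cannot be told apart, since no Hap-I library with no diet stated is kidney-like.

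The dystrophin-associated complex anchors AQP4 at astrocyte endfeet, and 10 of 10 tested genes of it were higher in the brain-like than in the kidney-like libraries, beside 63.5% of all genes, with a median of 1.25 beside 0.88 over all genes. Of these 10, 1 passed the filter on low values through the brain-like libraries alone, so its higher level follows from its selection. Dystrobrevin Dtna (4.42), dystrophin Dmd (2.68) and the sarcoglycan Sgcb (2.51) led, but under median-of-ratios scaling 7 were higher and 1 lower, and with quantile normalization 5 were higher and 1 lower. Over all genes these settings gave 6671 higher and 6147 lower of 15004, and 6234 higher and 6782 lower of 15200. In the kidney, 8 of 9 genes of the complex were lower in diet-fed Hap-I adults than in C57 adults, beside 59.7% of all genes, with a median of -0.93, led by Dag1 (-2.49), Agrn (-1.34) and Dtnb (-1.09). Under median-of-ratios scaling 1 of 7 tested was lower, beside 1779 of 12715 genes. Of the vasopressin chain, 13 genes reached the filter in the brain-like and in the kidney-like libraries, and 12 of them were higher in the brain-like ones. Among them were the adenylyl cyclase Adcy3 (3.69) and the anchoring protein Akap11 (3.43). Over all 15200 genes tested the share was 63.5%, and genes reaching the filter in both were not counted separately. Under median-of-ratios scaling 10 of all 17 tested genes of the chain were higher and 5 lower, beside 6671 higher and 6147 lower of 15004 genes. Avpr2, Avpr1a and Akap13 passed the filter through the kidney-like libraries alone, as did 9 of the 12 collecting duct factors, so their lower level follows from their selection.

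Age was also compared within the 8 brain-like libraries. There 3 of 7 members, Aqp1, Aqp4 and Aqp11, passed the filter on low values, and none was called in limma, beside 4 of 13497 genes, 0.0296%. Aqp4 averaged 27.8 ± 2.28 TPM in aged and 18.3 ± 8.90 TPM in adult Hap-I mice (SD, n = 4 each). The aged libraries, at 25.6 to 31 TPM, all lay above the adult ones, at 5.15 to 24.0 TPM, as did 10.5% of genes, and the log2 difference was 0.77 ± 0.38 (SE) with an adjusted p of 0.354. Without the first adult library, which had 5.15 TPM and the lowest summed astrocyte markers (1138 TPM against 1373 to 1602 TPM), the difference was 0.28. Aqp11 differed by 0.19 ± 0.21 and Aqp1 by -0.14 ± 0.70.

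Aqp1 in the brain-like libraries was set apart by a single library. The second adult library had 13.8 TPM, the 3 other adult libraries 0.165 to 0.760 TPM and the aged ones 0.364 to 2.37 TPM. That library also had the highest choroid plexus markers, with 5403 TPM of the thyroid hormone carrier Ttr, against 13.9 to 911 TPM in the 7 others, and 50.8 TPM of the potassium channel Kcnj13, against 0.304 to 7.04 TPM. Over the 8 libraries Aqp1 and Ttr had a Pearson r of 0.896 and a Spearman rho of 0.881, and r was 0.664 without the 2 libraries farthest from the median of Ttr. Aqp4 and the astrocyte markers had r 0.866 and rho 0.452, and r was 0.115 without the 2 farthest. Whether the amount of choroid plexus or astrocyte RNA in a library set these levels was not tested.

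**Figure D5:**
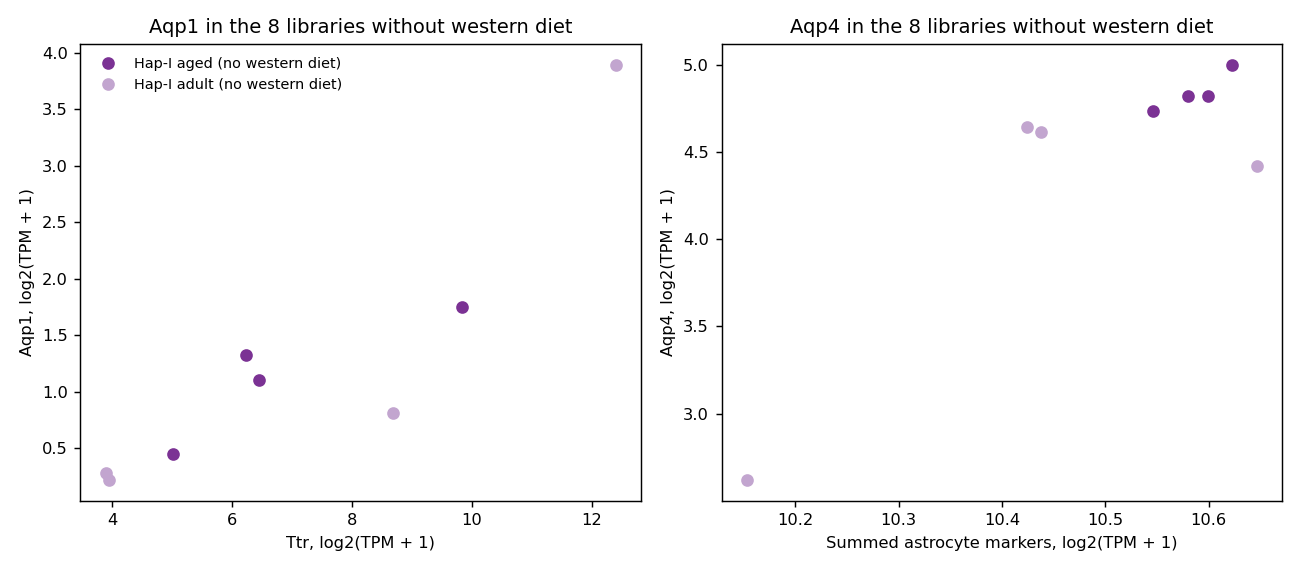
Left, Aqp1 against Ttr, and right, Aqp4 against the summed astrocyte markers, all as log2(TPM + 1), in the 8 libraries labelled Hap-I with no diet stated. A single adult library is highest in both Aqp1 (13.8 TPM) and Ttr (5403 TPM), and a single adult library is lowest in both Aqp4 (5.15 TPM) and astrocyte markers (1138 TPM).

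The 5 other family members in the table were weak. Aqp9, an aquaglyceroporin of liver and of some brain cells, stood at 1.57 to 3.16 TPM in the brain-like libraries and at most 0.352 TPM in the kidney-like ones. Aqp8 reached 1.53 TPM and passed 1 TPM in 3 kidney-like libraries. Aqp5, the gene between Aqp2 and Aqp6, reached at most 0.703 TPM in the kidney-like libraries although both neighbours were abundant there. The lens channel gene Mip and the pancreatic Aqp12 did not exceed 0.341 TPM in any library.

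Genes most like each member were sought by Pearson correlation of log2(TPM + 1) among 8011 genes over the 16 kidney-like libraries. The nearest were Slc39a1 for Aqp1 (r 0.986), Zmat5 for Aqp2 (0.938), Gstt3 for Aqp3 (0.968), Spink8 for Aqp4 (0.918), Prmt2 for Aqp6 (0.972), Tmem39b for Aqp7 (0.955) and Coq9 for Aqp11 (0.907). The third for Aqp6 was Slc4a2, an anion exchanger (0.969), and the third for Aqp7 was the lipase Pnpla2 (0.953). Of the 27 nearest genes, 3 per member and library set, 9 remained with deviations from group means and 9 with median-of-ratios scaling. Over the 8 brain-like libraries the nearest among 10458 genes was Klhl11 for Aqp4 (0.996) and Dlg4 for Aqp11 (0.984).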

How the data were processed

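The authors deposited 1 table of TPM for 30153 Ensembl identifiers and 24 libraries. Per the labels, total RNA was extracted with a Qiagen kit and stranded TruSeq libraries were made from poly(A) RNA. Per the submitters' processing notes, kallisto, DESeq2 and GRCm38 were used, with versions, roles and annotation release not given in the sources used here. Kallisto divides reads between similar transcripts, and no member shares more than 1.81% of its 31-base words with any single gene outside the 7. Sharing among the members, and with all other genes together, was not counted. The deposited TPM sum to 904693 to 944019 per library. TPM keep no depth, so no counting interval is given and the number of libraries limits the precision. No pair of libraries had more than 1 identical value other than 0.

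Identifiers were matched to GENCODE M21 (29732 matched, 421 not). Each column was tied to its sample through the code that the title carries. Transcripts of the human transgene were not analysed here. Expression was tested as log2(TPM + 1), a scale on which changes of weak genes are understated, for genes at 1 TPM or more in at least 4 fitted libraries. The test was that of limma 3.58.1 under R 4.3.3, with an intensity trend in its moderated variance, two-sided, with Benjamini-Hochberg adjustment over all genes and a threshold of 0.05. Comparisons among kidney-like groups were fitted on 16 libraries and age without the diet on 8, because nephron genes near 0 elsewhere would narrow a shared spread. The fit was also run on simulated data, with the spread of each gene capped and the libraries varying independently. That run therefore does not show how the fit performs at the spread of these libraries. Permutation tests used scipy 1.17.1. Segment, cell type and pathway lists were chosen by name, and some genes stand on both a marker list and a pathway list. Cdh16, Avpr2 and Gata3 are also principal cell markers, and Umod and Slc12a1 also thick ascending limb markers. Counts of such lists are therefore not separate results. From each list all called genes are named where 6 or fewer were called, and otherwise the 3 with the largest change in each direction, of which some are not reported here. Nearest genes had a mean of at least 5 TPM and a symbol that is no predicted name. A library counted as having Y-linked transcripts where 4 Y-linked genes averaged at least 1 TPM. The members, lists and tests were chosen with earlier results of these data known. Alternatives were a pseudocount of 0.1, no filter, a filter at 5 TPM, median-of-ratios and quantile scaling, removal of mitochondrial genes, array weights, other sets of libraries, a Y-linked covariate, the replicate block and each library left out. The fit on libraries without Y-linked transcripts and the levels relative to segment markers were added after seeing the data. Promoter windows came from RefSeq (GRCm38.p6).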

Additional observations from a re-analysis of the deposited data

Results flagged for a closer look

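Of 42 combinations of a gene and a group, 4 held a library far from the other 3 of its group. The limit used flags about 1 in 20 groups of independent, normally distributed values. The combinations share libraries and TPM need not be normally distributed, so that rate gives no expected count here. Aqp1 in the second library of Hap-I adults with no diet stated was 13.85 TPM, against 0.165 to 0.760 TPM in the other libraries of the group. In the fourth library of diet-fed Hap-I adults, Aqp3 was 13.08 TPM, against 41.2 to 43.7 TPM in the others. In the same library Aqp7 was 2.996 TPM, against 5.84 to 5.96 TPM. Aqp7 in the second C57 library was 22.97 TPM, against 13.04 to 13.9 TPM in the others.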

How the results depend on the processing

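The number of aquaporin genes called between diet-fed Hap-I adults and C57 adults was 6, and between diet-fed Hap-II adults and C57 adults 4. In the Hap-I comparison it was 3 with median-of-ratios scaling and 5 to 6 with a library left out. No count is given there for libraries without Y-linked transcripts, which kept 1 library of diet-fed Hap-I adults. In the Hap-II comparison it was 1 with median-of-ratios scaling, 2 with quantile normalization, 2 with mitochondrial genes removed, 0 with a Y-linked covariate, 0 in libraries without Y-linked transcripts, and 0 to 5 with a library left out. The cause was not tested. The counts for age with the diet, haplotype and age without the diet were 0 under every alternative run, and that for the brain-like against the other libraries stayed within 1.5 times of 6.

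Single differences changed sign as follows. For age on the diet, median-of-ratios scaling gave -0.045 for Aqp1, -0.14 for Aqp3 and -0.061 for Aqp7. Quantile normalization gave -0.013 for Aqp3 and -0.12 for Aqp7, array weights -0.0067 for Aqp3 and -0.31 for Aqp4, and libraries without Y-linked transcripts -0.14 for Aqp1. With a library left out Aqp3 ranged over -0.13 to 0.51 and Aqp4 over -0.11 to 0.57. For haplotype, median-of-ratios scaling gave 0.036 for Aqp3 and 0.084 for Aqp11, quantile normalization 0.060 for Aqp11, and array weights 0.017 for Aqp1, 0.26 for Aqp2 and 0.14 for Aqp3. With a library left out Aqp2 ranged over -0.94 to 0.15 and Aqp3 over -0.61 to 0.17. Aqp11 in diet-fed Hap-I adults against C57 adults was 0.57 with median-of-ratios scaling and 0.54 with quantile normalization. In diet-fed Hap-II adults against C57 adults it was 0.48 with either, and 0.067 in libraries without Y-linked transcripts. For age without the diet Aqp1 was 0.30 with a pseudocount of 0.1 and -0.50 to 0.095 with a library left out.

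With the replicate number as a block, 0 aquaporin genes were called for age on the diet and 0 for haplotype. The labels state no pairing by number. The correlation of same-numbered libraries lay between -0.13 and 0.54 over 12 pairs, 8 of them over 0.1. Of 12 libraries 4 correlated best with their own number. Whether the numbers mark pairs was not tested. The number of genes called over the whole table also moved. For age on the diet it was 4, against 2199 with array weights, 443 in a fit of all 24 libraries, 7 in libraries without Y-linked transcripts, 2 with the replicate block or with only the groups compared, and 2 to 22 with a library left out. For haplotype it was 10, against 51 with array weights, 5 with the replicate block, 3 in libraries without Y-linked transcripts and 4 to 7 with a library left out. Between diet-fed Hap-I and C57 adults it was 8009, against 4096 with median-of-ratios scaling, 3910 with quantile normalization, 3284 with a Y-linked covariate and 6042 to 8104 with a library left out. Between diet-fed Hap-II and C57 adults it was 5127, against 2877 with median-of-ratios scaling, 2915 with quantile normalization and 1926 with a Y-linked covariate. It was 40 in libraries without Y-linked transcripts, 3413 with mitochondrial genes removed, 9706 with array weights, and 1803 to 6961 with a library left out. For age without the diet it was 4, against 65 in a fit of all 24 libraries 1 with a pseudocount of 0.1 or no filter, and 1 to 5 with a library left out.

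Of 28 mean levels in the kidney-like groups, 7 moved beyond 1 SD with median-of-ratios scaling and 9 with mitochondrial genes removed, and of 14 in the brain-like groups 0 and 1. TPM give no depth, so values near 0 have no detection limit. The limma p-values rest on a moderated spread shared by all groups fitted, with 4 libraries per group, and not on the compared groups alone.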
